A study of Arabidopsis thaliana with 6 samples.

Results

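The 3 RNA-seq libraries of Col-0 anthers, named A, B and C, were examined on their own. Col-0 (Columbia) is the wild-type background of the study, and these libraries carry no mutant allele or transgene by their labels. The genes described are the 17268 that were listed at an FPKM of at least 1 in all 3 libraries, which is 52.6% of the 32833 genes in the files. FPKM is the number of fragments scaled to the length of the transcript and to all mapped fragments, so that levels can be compared between genes of different length. The series holds 6 libraries, and the other 3, of the ice1-2 mutant of the transcription factor gene ICE1, were not used. Plants were grown in a greenhouse under long days, and no treatment is named. The labels give the tissue as anthers of stages 9 to 13, and the study's methods give these numbers as flower stages. Neither source says whether the letters stand for separate plants, so the spread between libraries may be partly technical.

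An anther makes pollen inside locules with a layered wall. The innermost wall layer, the tapetum, feeds the microspores, makes the precursors of the sporopollenin wall and deposits the lipid and protein pollen coat, and then dies. Later the pollen grain stores transcripts for the growth of its tube, the endothecium thickens its walls, and the stomium opens under the control of jasmonate. Whole anthers hold all of these cells, so that in bulk RNA fewer cells of a type and less RNA per cell cannot be told apart.

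The highest levels were those of genes known from pollen and its tube. PGA4 (AT1G02790, a polygalacturonase that cuts pectin, on chromosome 1 from 610363 to 612324) was listed at 6505, 8057 and 6891 FPKM in A, B and C, and its mean of 7151 was 777-fold the median gene's 9.20. Its level was above 6000 in every library, and it ranked 1, 2 and 1. VGD1 (AT2G47040), a pectin methylesterase that pollen tubes need for growth, was listed at 4894, 6634 and 5539 FPKM. The core promoters of 7 leading genes are shown because 35.0% of the 100 highest protein-coding genes had the letters TATAAA in the 50 bases before the annotated start, against 11.0% of all 27443 nuclear protein-coding genes. Each line gives the 60 bases before the RefSeq start on the gene's own strand (TAIR10.1), 5′ to 3′, with TATAAA in capitals. The PGA4 stretch is chr1:612325-612384 on the minus strand, that of VGD1 chr2:19330198-19330257 on the minus strand, those of RALFL8 and RALFL9 chr1:22715449-22715508 and chr1:22717611-22717670 on the minus strand, that of AT3G07820 chr3:2498096-2498155 on the minus strand, that of AT3G28830 chr3:10831102-10831161 on the plus strand, and that of AT5G45880 chr5:18611167-18611226 on the minus strand.
PGA4: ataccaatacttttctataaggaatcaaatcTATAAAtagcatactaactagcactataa
VGD1: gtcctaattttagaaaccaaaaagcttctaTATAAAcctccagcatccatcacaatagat
RALFL8: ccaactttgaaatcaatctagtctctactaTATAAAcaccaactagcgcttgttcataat
RALFL9: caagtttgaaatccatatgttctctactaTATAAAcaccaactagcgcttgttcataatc
AT3G07820: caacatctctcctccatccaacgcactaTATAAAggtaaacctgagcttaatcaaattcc
AT3G28830: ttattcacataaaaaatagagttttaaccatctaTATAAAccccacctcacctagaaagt
AT5G45880: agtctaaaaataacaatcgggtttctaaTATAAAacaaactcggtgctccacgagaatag
The first T of the motif lay between 32 and 26 bases before the start in these genes. The other 5 of the 12 highest nuclear genes outside the ribosomal RNA loci (sks13, AT3G07850, AT3G01270, AGP23 and AT3G28750) did not hold these letters in that window.

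Genes that act on pectin, the gel of the primary wall, led the ranking. Of the 25 highest genes 8 carried a pectin product name (polygalacturonase, pectate lyase, pectin lyase-like, or the family of pectin methylesterases and their inhibitors), as did 19 of the highest 100. All 120 such genes together held 9.12% ± 0.833 (SD, n = 3) of the FPKM sum. AT3G01270, a pectate lyase, was listed at 3639, 4852 and 4064 FPKM. AT3G07850 was at 4520, 4814 and 3382, and AT3G07820 at 3360, 4651 and 3862; both encode pectin lyase-like proteins. For AT3G01270 and AT3G07820 the order of the libraries was that of PGA4, with B highest and A lowest, while AT3G07850 was lowest in C.

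Proteins of the wall and small peptides also stood among the 10 highest genes. sks13 (AT3G13400), of the SKU5 family of multicopper oxidase-like proteins, was listed at 4513, 6095 and 5112 FPKM. RALFL8 (AT1G61563) and RALFL9 (AT1G61566), small secreted peptides of the rapid alkalinization factor family, were at 4709, 5911 and 4809 and at 4548, 6072 and 4740. Where such neighbouring paralogs share sequence, their split of the reads is uncertain. AGP23 (AT3G57690), an arabinogalactan protein, was listed at 3151, 5098 and 3975 FPKM, and the 40 arabinogalactan genes together held 1.95% ± 0.293 (SD, n = 3) of the sum. AT5G45880, of the Ole e 1 pollen allergen family, was at 3095, 4017 and 3478.

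The group of ribosomal RNA genes and 1 gene beside them did not follow the rest. AT2G01021, a gene model of only 102 bases on chromosome 2 (6571 to 6672), starts 625 bases after the ribosomal RNA gene AT2G01020 and was listed at 303, 16555 and 4550 FPKM. It ranked 250 in A, 1 in B and 6 in C, and its mean without B was 2427. It alone took 0.0489%, 2.59% and 0.742% of the sum in A, B and C, which the ribosomal RNA shares below do not include. AT3G41768, an 18S ribosomal RNA gene, was listed at 735, 7077 and 2399. The 4 ribosomal RNA genes took 0.461%, 2.22% and 0.912% of the sum in A, B and C, and plastid identifiers took 0.0517%, 0.384% and 0.148%. Both classes were lowest in A and highest in B. Near-identical copies of these genes exist, so the assignment of reads to each of them is uncertain, and the part of these genes in the higher shares of B was not tested.

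**Figure D1:**
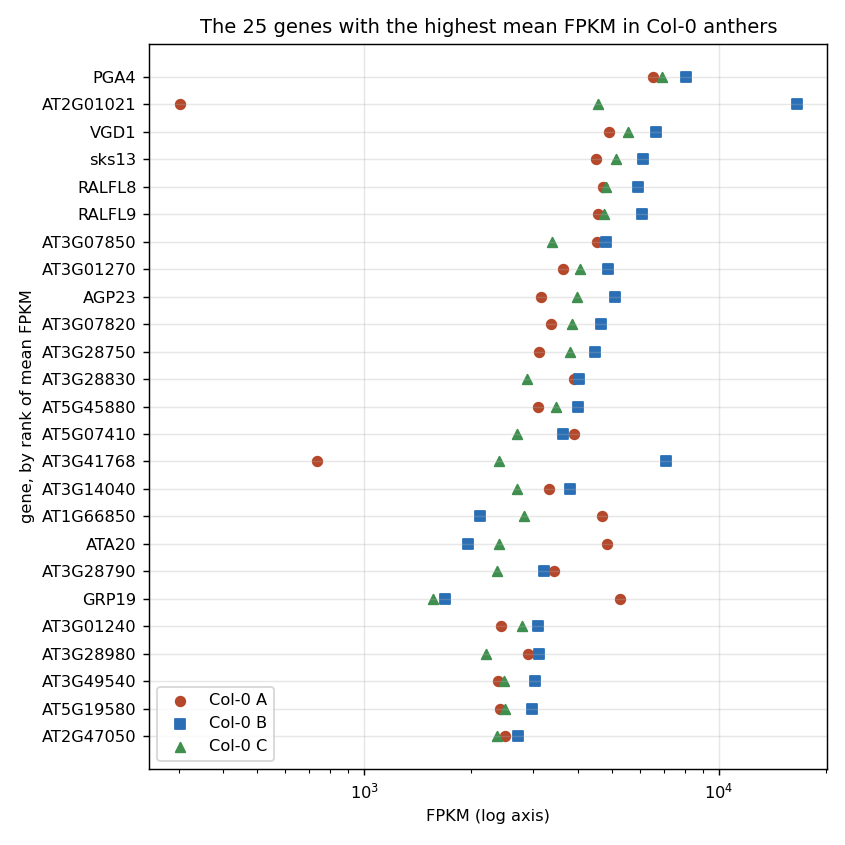
FPKM (log axis) of the 25 genes with the highest mean, ranked from the top, with 1 point for each Col-0 library. B is highest for 20 of the 25 genes and A for 5, and AT2G01021 and AT3G41768 spread far more than the others.

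Of the 25 highest genes 20 had a coefficient of variation (CV, SD over mean) under 25%, as had 81 of the highest 100, which is near the 76.9% of all 8188 genes with a mean of at least 10 FPKM. A CV over 50% was found for 15 of these 100, of which 10 were highest in A, 4 in B and 1 in C. Of the 8188 genes 4.84% had such a CV. The ranking used the mean of the same libraries, so a gene could enter the highest 100 through the library where it was high. Without A, 94 of the 100 stayed among the highest 100. The 10 highest in A include GRP19 (AT5G07550), an oleosin-type protein of the pollen coat, at 5251, 1695 and 1560 FPKM. ATA20 (AT3G15400), an anther-specific protein, was likewise highest in A at 4822, 1959 and 2393. Library A stood 2-fold or more above the others for both genes. MIR2936, at rank 26 and chosen after its values were seen, was listed at 2204, 2784 and 2570 FPKM, but its 180 bases lie inside SAG21 on the same strand, which was at 127, 258 and 243, so reads of these overlapping genes cannot be told apart.

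Few genes held most of the FPKM sum. The 10 highest held 8.36% ± 2.23 (SD, n = 3) of the sum over the genes described, the 100 highest held 31.3% ± 3.53 and the 1000 highest 61.0% ± 3.51. By library, the top 100 held 29.6% in A, 35.3% in B and 28.8% in C, so B was the most concentrated and A and C did not differ by more than 1 point. Ordered by mean, 58 genes held 25% of the sum, 459 held 50% and 6575 held 90%. Only 928 genes, 5.37%, had a mean of 100 FPKM or more, and 66 had 1000 or more. The 355 ribosomal protein genes, in contrast, held 3.33%, 3.33% and 3.33% in the 3 libraries, and none of them was among the highest 100. Lipid transfer genes held 1.23% ± 0.509 (SD, n = 3) and genes named glycine-rich protein 0.991% ± 0.549, both highest in A. The second class leaves out GRP17, at 3806, 1274 and 983 FPKM, whose product name has no hyphen. Its share is therefore understated. The remaining product classes each held less than 1%: heat shock proteins and chaperones 0.733%, photosystem and light-harvesting proteins 0.685%, elongation factors 0.347%, aquaporins 0.341%, metallothioneins 0.225%, histones 0.224%, cytochrome P450 enzymes 0.183%, chalcone and flavonoid enzymes 0.0645% and oleosins by name 0.0439%.

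**Figure D2:**
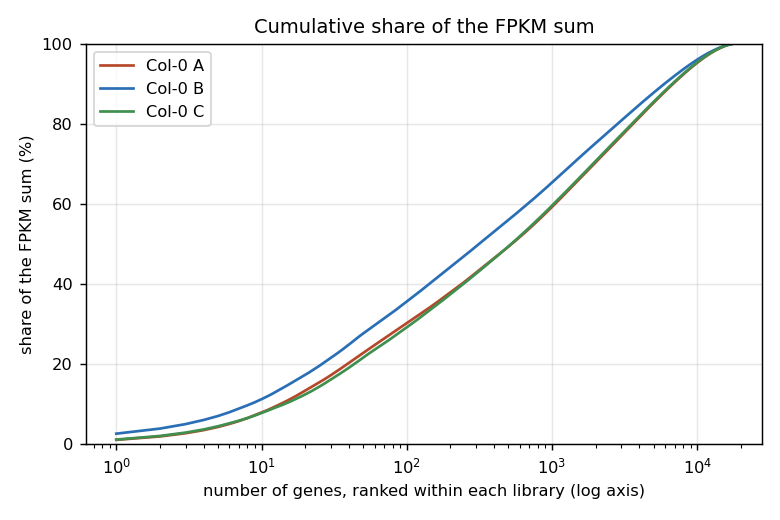
Cumulative share of the FPKM sum (percent) against the number of genes ranked within each library (log axis), 1 line for each library. The line of B runs above those of A and C, and its own 100 highest genes held 35.7% against 30.2% in A and 29.2% in C.

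The matched genes of pollen and its tube were present nearly in full. Of 35 listed genes of the vegetative pollen cell, 32 were matched by identifier and name. Of these 32, 31 were at 1 FPKM or more in all libraries, against 52.6% of the genes in the files. The median mean level of the 32 was 177 FPKM, against 9.20 over all 17268 genes. The arabinogalactan gene AGP6 (1698, 2232 and 1750 FPKM) and VGDH1 (1872, 2655 and 2274), a paralog of VGD1, were among the highest. The pectin methylesterase PPME1 was at 2365, 1911 and 1482, with A highest. The missing gene was NIP4;2, an aquaporin, at 0.557, 0.0317 and 0.426, next to NIP4;1 at 44.7, 50.5 and 36.8. The 31 genes together were highest in B, and 26 of them had their highest value there, against 18.2% of all 17268 genes. After scaling by median ratios, which puts the median gene near the same level in each library, this was so for 29 of the 31 and for 33.5% of all genes. Regulators were lower: the MYB factors MYB101, MYB97 and MYB120 of the pollen tube were listed at mean levels of 185, 8.07 and 1.68.

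Genes of the sperm lineage were listed at low levels and those of meiosis mostly below 1. GEX1, a membrane protein of sperm nuclei, was listed at 30.7, 47.1 and 41.8 FPKM. DUO1, the MYB factor needed for the division of the generative cell, was at 4.56, 4.31 and 3.05, and HAP2, the gamete fusogen, at 3.09, 3.03 and 2.78. All 5 matched genes of the list, of 6 listed, were above 1 in all libraries. Of 12 meiosis genes 4 were, against 52.6% of the genes in the files. The recombinase DMC1 was the highest of them at 4.90, 3.56 and 5.75, and SWI1 was listed at 0 in every library.

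The tapetum genes were split by function. All 9 matched pollen coat genes, of 13 listed, were at 1 FPKM or more in each library. Their median mean level was 788, which was 512 without A. GRP17, the major oleosin-type coat protein, was listed at 3806, 1274 and 983 FPKM. The extracellular lipase EXL4 was at 2237, 605 and 569, and the glucosidase BGLU20 at 2192, 485 and 539. For these 3 genes A was more than 2-fold above B and C, which were close to each other. Of 8 matched regulators of tapetum fate and function (11 listed) 4 were above 1 FPKM in all libraries, near the 52.6% of all genes in the files. NZZ, which starts sporogenesis, was listed at 22.9, 16.3 and 22.0, the receptor kinase EMS1 at 9.08, 5.09 and 7.93, and its ligand TPD1 at 3.15, 1.87 and 3.68. These 3 genes were lowest in B. Early tapetum factors were lower still. DYT1 was listed at 0.0908, 0.199 and 0.0666 FPKM and MYB35 (also called TDF1) at 0 in all libraries, and MS1, a later regulator, at 0.735, 0.0494 and 0.0768. AMS, the bHLH factor that drives pollen wall genes, was at 69.2 in A, 23.9 in C and slightly less in B.

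The sporopollenin genes were above 1 FPKM for 9 of 9 in A and for 3 of 9 in B and C. Of all 32833 genes in the files 18513, 18154 and 18242 were at 1 or more in A, B and C. MS2, the fatty acyl reductase of this pathway, was listed at 23.9, 0.292 and 0.225 FPKM. ABCG26, the transporter that exports wall precursors, was at 4.57, 0 and 0, and CYP703A2, a fatty acid hydroxylase, at 9.05, 0.332 and 0. LAP3 did not share this pattern, at 112, 100 and 140. It overlaps AT3G59520 on the same strand, so reads from the overlap cannot be told apart. The list's median mean level was 3.13 FPKM and fell to 0.166 without A. Of the other tapetum genes, all 10 matched (12 listed) were highest in A (9 after scaling by median ratios), but to unequal degrees. The lipid transfer protein LTP12 was at 1969, 218 and 166 and the methyltransferase TSM1 at 970.5, 100 and 133. SHT, which conjugates spermidine, was at 298, 26.5 and 19.5. The callose synthase CALS5 was at 53.3, 47.1 and 37.8, and QRT1, which acts in the separation of the tetrads, at 6.11, 2.79 and 3.03. In A the sum of this list was 8.65 times the mean of B and C, against 3.28 times for the coat genes. This last list had a median of 106 FPKM, which was 31.7 without A.

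Taken over the 36 tapetum genes of the 4 lists, the sum was 22620 FPKM in A, 6525 in B and 5790 in C, or 3.65%, 1.02% and 0.944% of the library. A was 3.67 times the mean of B and C, and 32 of the 36 genes were highest in A. Against 52.6% of the genes in the files, 26 of the 36 were at 1 FPKM or more in all libraries. Of these, 3 of 4 regulators, 2 of 3 sporopollenin genes, 9 of 9 coat genes and 10 of 10 others were highest in A. After scaling by median ratios the counts were 3, 2, 9 and 9. The share of all genes described was 43.6% as deposited and 31.7% after scaling. DYT1 was highest in B and TPD1 and LAP3 in C, and MYB35 was at 0 throughout. The pollen list did not share the direction, since its sum in A was 0.867 times the mean of B and C. Of the list of touch, heat and drought genes, 3 heat-responsive genes were over 2-fold below both other libraries in A: HSP101, a chaperone, was listed at 11.1, 40.4 and 67.2 FPKM, HSFA2, a heat stress factor, at 7.67, 32.6 and 53.3, and HSP90.1 at 17.7, 49.4 and 89.3. The 183 genes with a heat shock or chaperone product name held 0.714%, 0.655% and 0.829% of the sum, so the class as a whole was not lowest in A. The phloem sucrose transporter SUC2 was lowest in A too, at 4.35, 18.7 and 25.2. COR15A, a cold-regulated gene, was highest in A, at 306, 75.6 and 114. The part of these genes, and of the ribosomal RNA share, in the tapetum difference was not tested.

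**Figure D3:**
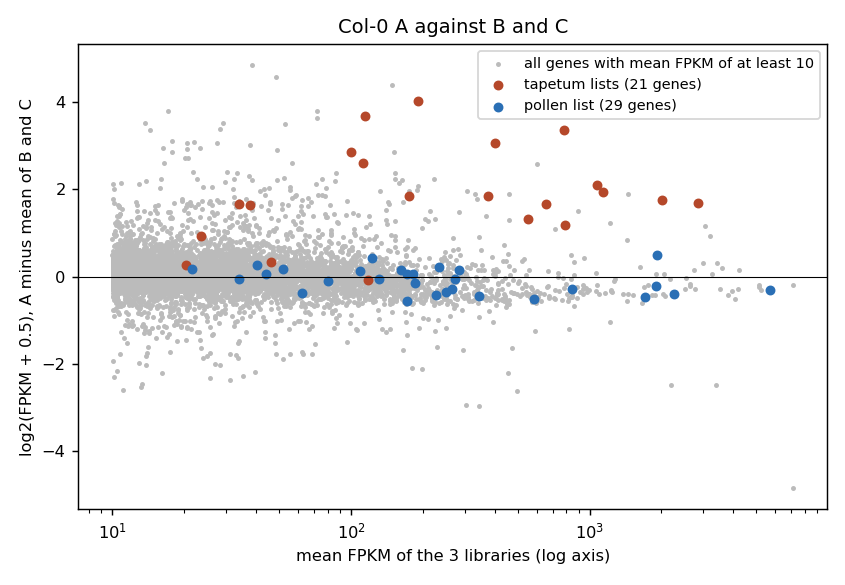
Difference in log2(FPKM + 0.5) between Col-0 A and the mean of B and C against the mean FPKM (log axis), for the 8188 genes with a mean of at least 10. The 21 tapetum genes lie mostly above the line and the 29 pollen genes lie near 0.

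Among the 8188 genes with a mean of at least 10 FPKM, 228 were over 2-fold above both other libraries in A, which is 2.78%, and 78 (0.953%) were below. On the same rule, 16 of 21 tapetum genes stood above in A and none of 29 pollen genes did. Because the minimum was set on the mean of all 3 libraries, a gene could pass it through the library where it was high: in 55 of the 228 genes the mean of B and C was under 10, but in none of the 16 tapetum genes. B stood above for 20 genes (0.244%) and below for 47 (0.574%), and C stood above for 59 (0.721%) and below for 20 (0.244%). In 5 of the 20 genes above in B and 16 of the 59 above in C, the mean of the other libraries was under 10. The gene farthest above in A was AT5G13380, a GH3-family protein, at 108, 4.06 and 2.64 FPKM, and AT5G16960, a zinc-binding dehydrogenase, was at 407, 19.1 and 18.6. KCS15, a 3-ketoacyl-CoA synthase, was at 135, 6.91 and 3.86. AT5G13380 and KCS15 passed the minimum only through A. By product name, 7 of 27 lipid transfer genes and 6 of 31 glycine-rich protein genes, without GRP17, stood above in A. So did 6 of 31 cytochrome P450 genes and 5 of 9 chalcone and flavonoid genes, against none of 294 ribosomal protein genes. Genes of these classes could also pass the minimum through A, and the class counts were not split by that.

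Fewer genes stood apart in C and in B. AT1G12010, an oxygenase of the 2-oxoglutarate type, was listed at 4.78, 6.25 and 95.2 FPKM, the homeobox gene HB21 at 10.01, 19.7 and 71.3, and the cysteine protease CEP1, which acts in the death of the tapetum, at 9.61, 11.7 and 40.5. In these 3 genes C was high and A and B were within about 2-fold of each other. LTP3 was high in B, at 2.01, 31.2 and 6.16. AT1G12010 and LTP3 passed the minimum mean of 10 only through the library where they were high. RALF23, a signalling peptide, was low in B, at 18.0, 1.21 and 18.4. AT5G20790 was low in C, at 48.8, 37.3 and 2.69.

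The wall, epidermis and floral identity genes were present. Of all 17268 genes 52.4% had their lowest value in B and 38.2% their highest in C, or 32.9% and 34.8% after scaling by median ratios. All 7 floral identity genes described had their lowest value in B, among them the stamen genes PI (349, 199 and 311 FPKM) and AP3 (164, 130 and 191), and the C-class gene AG (77.6, 58.1 and 98.1). After scaling this held for 4 of 7. Of 14 epidermis genes 9 were lowest in B, against 52.4% of all genes, or 8 after scaling, against 32.9%. Of 9 genes of secondary wall thickening 7 were highest in C, among them CESA4, a cellulose synthase, at 38.4, 37.9 and 58.6. For the wall genes the lowest library was B for 5 of 9 as deposited, as for all genes. After scaling it was A for 6 of 9, against 32.6% of all genes. Of 11 dehiscence and jasmonate genes 9 were highest in C and 7 lowest in B, against 38.2% and 52.4% of all genes. After scaling the counts were 8 and 6, against 34.8% and 32.9%. MYB108 was at 68.9, 32.2 and 73.0. The cuticle gene CER1 was at 84.5, 88.7 and 127, and the lipid transfer gene LTP1 at 428, 609 and 680. Of 16 guard cell genes 7 were at 1 FPKM or more in all libraries. TGG2 was the highest at 65.8, 70.3 and 66.1, and TGG1 was at 38.7, 39.1 and 33.6. ICE1 itself was listed at 12.7, 9.25 and 14.0, and KAT1 at 17.3, 2.91 and 2.52. The stomatal regulators SPCH and MUTE were under 0.1 in all libraries, and FAMA was above 1 only in C. WUS, a stem cell gene that is also expressed in anthers, was at 96.1, 59.4 and 114, while its meristem partners STM and CLV3 stayed under 1.

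Markers of carpels were low. None of the 6 carpel and ovule genes reached 1 FPKM in all libraries, and the highest single value was 1.22, of SHP1 in A. Of the list of seed and root genes, the storage protein gene CRA1 and the embryo regulator LEC2 were listed at 0 and ABI3 was at 0.0226 in A and 0 in B and C. The root regulators SCR (3.63, 2.59 and 3.01 FPKM) and SHR (1.58, 2.13 and 1.60) were above 1 in every library. Transcripts of green tissue genes were listed in each library, with CAB1 at 468, 498 and 544 FPKM. All 16 genes of that list were described, with a median mean level of 75.3. CAB1, CAB2 and CAB3 are near-identical, so their split is uncertain.

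**Figure D4:**
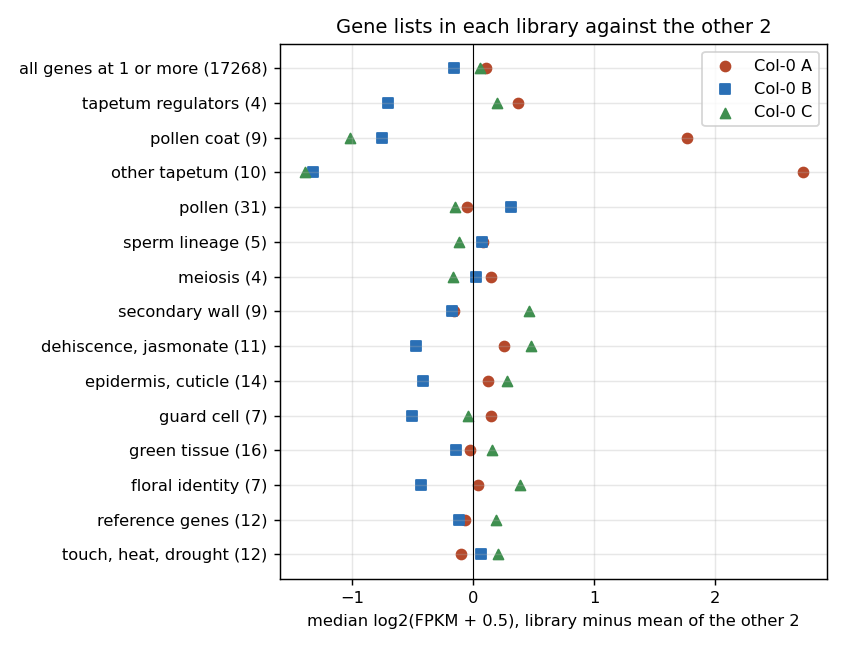
Median over each list of log2(FPKM + 0.5) in a library minus the mean of the other 2, for lists with at least 4 genes described (their number in parentheses), 1 point for each library. The pollen coat and other tapetum lists lie at 1.77 and 2.72 in A, and the pollen list lies at 0.31 in B.

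Over all 17268 genes the libraries correlated with a Pearson r of 0.962 for A and B, 0.955 for A and C and 0.970 for B and C on log2(FPKM + 0.5), with Spearman rho of 0.957, 0.948 and 0.963. Genes are not independent replicates, and no p is given. The SD of the log2 differences was 0.49, 0.52 and 0.43, and 94.9%, 94.2% and 96.9% of genes were within 2-fold. Between B and C 27 genes differed over 4-fold, against 133 for A and B and 150 for A and C. The median over genes of the log2 difference was 0.17 for A minus B, -0.15 for B minus C and 0.03 for A minus C. The median CV fell from 19.3% at mean levels of 1 to 2 FPKM to 15.1% at 10 to 100, and was 17.3% at 1000 or more.

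Common reference genes varied to different degrees. UBC9, a ubiquitin-conjugating enzyme, was listed at 118, 110.5 and 109 FPKM (CV 4.55%), PEX4 at 22.9, 22.2 and 24.4 (4.73%) and AT5G60390, an elongation factor gene, at 261, 277 and 290 (5.28%). ACT2 was at 36.5, 47.6 and 72.6 FPKM (CV 35.4%), and 88.9% of the genes with a mean of at least 10 varied less. GAPC2, at 132, 153 and 261, and UBQ10, at 57.4, 47.7 and 88.5, also varied more than most. These 3 were highest in C. The genes with the lowest CV were AT3G45040, RAN3, AT5G48760, AT4G31450 and P5CR, all at a CV of 0.380% or less. RAN3, a small GTPase, was listed at 64.0, 63.7 and 63.9 FPKM.

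Gene structure differed with rank. FPKM is divided by transcript length, so length is not independent of the ranking. Of the 100 highest nuclear protein-coding genes 26.0% had no annotated intron, against 15.7% of the next 900, 10.1% of the 4000 after these and 13.0% of the last 11685, and 32.6% of the genes below 1 FPKM in a library. Their median coding length was 655.5 bases, against 1233 in the last 11685. TATAAA stood in the 50 bases before the start of 35.0%, 15.0%, 10.5% and 9.31% in the same order, and of 12.5% of the genes below 1. The shorter motifs AGAAA and GTGA, searched on both strands in 300 bases around the start, were in 92.0% and 82.0% of the highest 100 and in 88.5% and 84.4% of all genes, so they did not set these genes apart. A match of letters is a description and not a site.

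**Figure D5:**
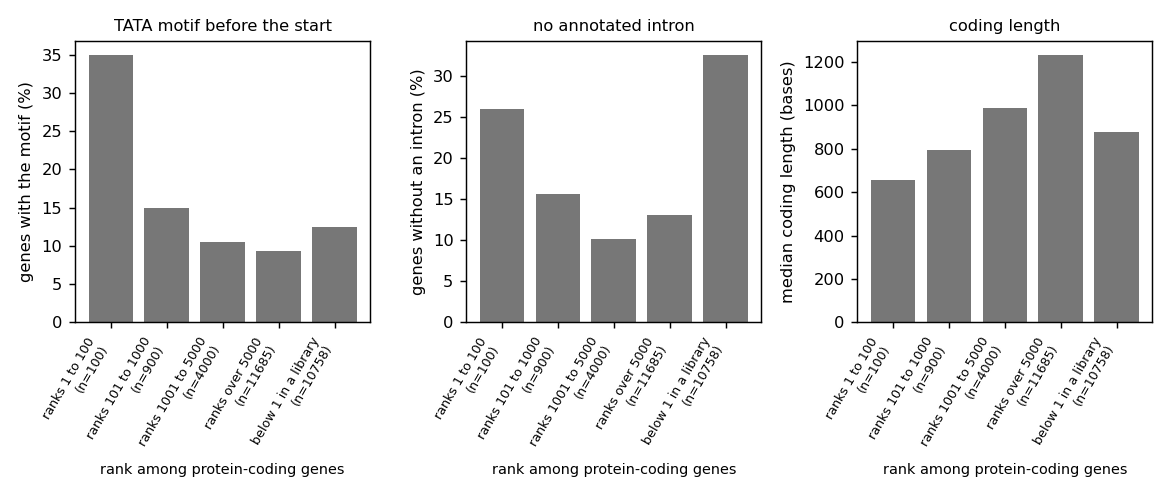
Share of genes with TATAAA in the 50 bases before the start, share without an annotated intron (both percent) and median coding length (bases), as bars from 0, by rank of mean FPKM among nuclear protein-coding genes. The 100 highest genes have the motif in 35.0% of cases and the shortest median coding length.

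High genes also lay close together. Of the 100 highest nuclear protein-coding genes, which leave out the ribosomal RNA genes, 35 had another of them within 20 kb, against a median of 4 (0 to 14) in the 165 following blocks of 100 genes by rank. They formed 14 clusters. The largest lay on chromosome 3 from 10791499 to 10840059 and held AT3G28750, AT3G28780, AT3G28790, AT3G28830 and AT3G28840, with 1.97% of the sum; 4 of these carry a product name with DUF1216. VGDH1, VGD1 and AT2G47050 made a cluster on chromosome 2 with 1.69%, and RALFL8 with RALFL9 held 1.66%. The pollen coat genes GRP14, GRP17 and GRP19 lay together on chromosome 5 from 2377703 to 2389249. Over genes of every type, ribosomal RNA included, chromosome 3 carried 37 of the highest 100 and 26.4% of the sum, and chromosome 4 carried 7 and 11.7%. Of the 17268 genes described, 3462 lay on chromosome 3 and 2577 on chromosome 4.

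At the lower end, 2081 genes were at 1 FPKM or more in only 1 or 2 libraries and 5972 genes were listed at 0 in all 3. Just inside the limit was AT1G33710, at 1.00, 1.80 and 2.36 FPKM, and just outside was AT4G29400, at 1.28, 1.22 and 0.9997. In 17 genes 2 libraries were at 10 or more and the remaining library was under 1, with 6 low in A, 6 in B and 5 in C. Of these 7 were listed at 0. AT3G02535 was listed at 0 in A with 87.5 and 50.1 in B and C, and AT1G24996 at 0 in C with 112 and 96.7 in A and B. An exact 0 beside such values can be a failed estimate, so no fold is given.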

How the data were processed

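Anther RNA of Col-0 was sequenced in 3 libraries (Illumina HiSeq 2000, reads of 100 bp per the labels). The authors trimmed reads with Trim Galore, aligned them to TAIR10 with TopHat2, assembled transcripts with StringTie and CuffMerge and counted with HTSeq, and deposited FPKM values per gene. Use of strand is not stated, so overlapping and antisense genes cannot be separated. Depth is unknown: 30.8%, 20.6% and 31.9% of low values lay within 0.05 of a whole step (10% if spread evenly), so reads were not recovered and no count test was used.

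Members were genes at 1 FPKM or more in A, B and C. Libraries were compared as log2(FPKM + 0.5), and the call rule for a library apart (a log2 gap over 1 to both others) used genes with a mean of at least 10. Fold values on this scale understate changes of low genes. FPKM sums were 618994, 638229 and 613304, with 18513, 18154 and 18242 genes at 1 or more; median-ratio size factors were 1.055, 0.922 and 1.030. Names, positions and promoters came from RefSeq TAIR10.1; 285 plastid and mitochondrial identifiers had no entry under these names. Named genes were taken from the top 25, the highest 4 of each list and the genes farthest apart in each library. Genes of lowest CV and those nearest 1 were also used, and others are named for comparison. The members and lists were chosen with earlier results of these data known, and product classes with faulty patterns (ribosomal RNA, ubiquitin, actin and profilin) were dropped after seeing what they matched. The calculations were tested on simulated data. There is 1 group, so no test between groups was made. Alternatives covered the minimum, pseudocount, ranking, scaling and each library left out. Python 3.11.15, numpy 2.4.6 and pandas 2.3.3 were used.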

Additional observations from a re-analysis of the deposited data

How the results depend on the processing

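A minimum of 5 FPKM lowered the number of genes to 10821, and the range with each library left out was 17575 to 17653. The mean Pearson r of 0.963 became 0.975 without a filter on low values and 0.924 for genes with a mean of at least 10, and the mean SD of log2 differences of 0.478 became 0.526 and 0.553. With each library left out, r ranged from 0.957 to 0.970 and the SD from 0.431 to 0.519, with the highest r without A. The shares of the top 10, 100 and 1000 ranged from 7.34% to 9.36%, from 29.3% to 32.5% and from 59.0% to 62.2%. Of the top 25, 22 to 25 genes were shared and of the top 100, 94 to 97. Under median-ratio scaling, chosen after seeing the data for these counts, genes low in B fell from 47 to 23, and the tapetum sum in A stayed 3.38 times that of B and C. The other 71 of 78 alternatives for these results stayed within the spread or within 1.5 times. No paired analysis was possible because the report describes a single group. Depth is unknown, so no interval for counting error could be given.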
